A study of Mus musculus with 3 samples.

Results

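Group 2 innate lymphoid cells were picked out of tumor-infiltrating leukocytes by a marker rule on raw transcript counts, and 54 of 71909 kept barcodes met it. A barcode was kept when 200 or more genes were detected in it and no more than 20% of its UMIs were mitochondrial, where a UMI is a unique molecular identifier that stands for 1 captured transcript. A member carried at least 1 UMI of Gata3 and at least 2 UMIs of Il1rl1, Il5 and Il13 together. It carried fewer than 2 UMIs of Cd3d, Cd3e and Cd3g, fewer than 4 of Trac, Trbc1 and Trbc2, fewer than 5 of Lyz2, C1qa, C1qb, S100a8 and S100a9, and none of Foxp3, Cpa3 or Fcer1a. The rule used measured values, so the levels of these genes in members, and every difference between members and other cells, are given as a description without a test.

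The cells came from wild-type B6129SF1/J mice carrying subcutaneous tumors of KP1, a mouse small-cell lung cancer line that lacks Rb and p53, grown from 500000 inoculated cells. The 3 groups received mono-IL-10, a monomeric interleukin-10, or IL-10/2-Trikine, an interleukin-10 joined to a binder that also recruits the interleukin-2 receptor beta chain, or IL-10/2-Trikine with an antibody against the checkpoint receptor PD-1. Doses of 3 µg cytokine went into the peritoneum on alternate days, the first on day 7 and the last on day 19, and the treatment label names the antibody, at 200 µg on days 7, 11, 15 and 19, for the combination alone. Live CD45+ cells were sorted on day 19 for droplet 3′ sequencing, with 1 library per group, no untreated library among them, and neither the number of mice behind a library nor their age given in the labels. Differences between groups therefore cannot be told apart from differences between libraries, no test was made, and all intervals are 95% intervals that cover counting error only.

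Group 2 innate lymphoid cells (ILC2) are lymphocytes without rearranged antigen receptors that sit in barrier tissues and answer alarmins such as interleukin-33, released by damaged epithelium and stroma. The transcription factor GATA3 specifies them, the receptor ST2, encoded by Il1rl1, reads interleukin-33, and the output is type 2 cytokine (interleukin-5, interleukin-13), amphiregulin and GM-CSF. Interleukin-2 and interleukin-7 sustain them, and in tumors they have been described both as recruiters of eosinophils and dendritic cells and as sources of suppressive factors.

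The libraries held 158570946 UMIs for mono-IL-10, 197176873 for IL-10/2-Trikine and 175794959 for the combination, with 22235, 22707 and 26967 kept barcodes. Members carried 55733, 132997 and 13028 UMIs in all, with a median per cell of 4421.5, 2890 and 2938 and a range from 1223 to 8723. A total of 0 counts in the members of a library allows a level of up to 53.8, 22.6 and 230 CPM, the unit of gene levels used here, which is the UMIs of a gene per 1e6 UMIs of the same cells. Pairs of libraries shared 137, 161 and 180 kept barcode sequences, and 7 sequences occurred in all of them.

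Members were rare in every library and most frequent after IL-10/2-Trikine. There were 12 in the mono-IL-10 library, or 0.0540% of kept barcodes (exact Clopper-Pearson interval 0.0279 to 0.0943%). There were 39 in the IL-10/2-Trikine library, or 0.172% (0.122 to 0.235%), and 3 in the combination library, or 0.0111% (0.00229 to 0.0325%). The interval after IL-10/2-Trikine lay above both others, while those of mono-IL-10 and the combination overlapped narrowly, with a ratio of combination to mono-IL-10 of 0.206 (0.0582 to 0.730). The share after IL-10/2-Trikine was 3.18 times that after mono-IL-10 (1.67 to 6.08), and the share in the combination was 0.0648 times that after IL-10/2-Trikine alone (0.0200 to 0.210).

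The denominator mattered for the first of these comparisons. Per 1000 CD4 T cells there were 7.25, 16.7 and 0.836 members in the mono-IL-10, IL-10/2-Trikine and combination libraries, and per 1000 natural killer (NK) cells 24.1, 51.1 and 2.63. Per 1000 regulatory T cells the values were 28.1, 29.9 and 2.43, so the first 2 libraries were nearly level on that scale. CD4 T cells were gated on Cd3 and Cd4 UMIs without Foxp3 or Cd8, regulatory T cells on Cd3 and Foxp3, NK cells on Ncr1 without Cd3, macrophages on C1qa and C1qb, and neutrophils on S100a8 and S100a9. In such shares a gain of one cell type cannot be told apart from a loss of the others.

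The edges of the rule were checked next. In the mono-IL-10 library all 12 members had more than 3 UMIs of Il1rl1, Il5 and Il13 together, against 34 of 39 after IL-10/2-Trikine and 2 of 3 in the combination, and 2, 5 and 4 barcodes that met every other criterion had exactly 1. Gata3 alone kept out 2, 21 and 15 barcodes, of which 1, 11 and 0 lay in the cluster described below. Without the Gata3 criterion the combination held 18 cells and its share was 0.253 times that of IL-10/2-Trikine, and Gata3 was seen at 1 UMI in 2 of its 3 members, against 9 of 39 after IL-10/2-Trikine. After every barcode had been thinned to 1000 UMIs before the rule was applied, which also loosens its exclusions, 15, 37 and 7 cells met it and the ratios were 2.22 and 0.171.

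A clustering of all kept barcodes that was blind to the genes of the rule placed 47 of the 54 members in 1 of 22 clusters, a small one of 136 barcodes. This cluster held 32, 92 and 12 barcodes of the mono-IL-10, IL-10/2-Trikine and combination libraries, and its share ratios were 2.82 and 0.110. All 12 mono-IL-10 members and 34 of 39 IL-10/2-Trikine members lay in it, but only 1 of 3 combination members did, so the label rests on a single cell there. Among the 20 nearest neighbors of a member a median of 30% were themselves members (range 0 to 55%), while members made up 0.0751% of all kept barcodes.

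**Figure D1:**
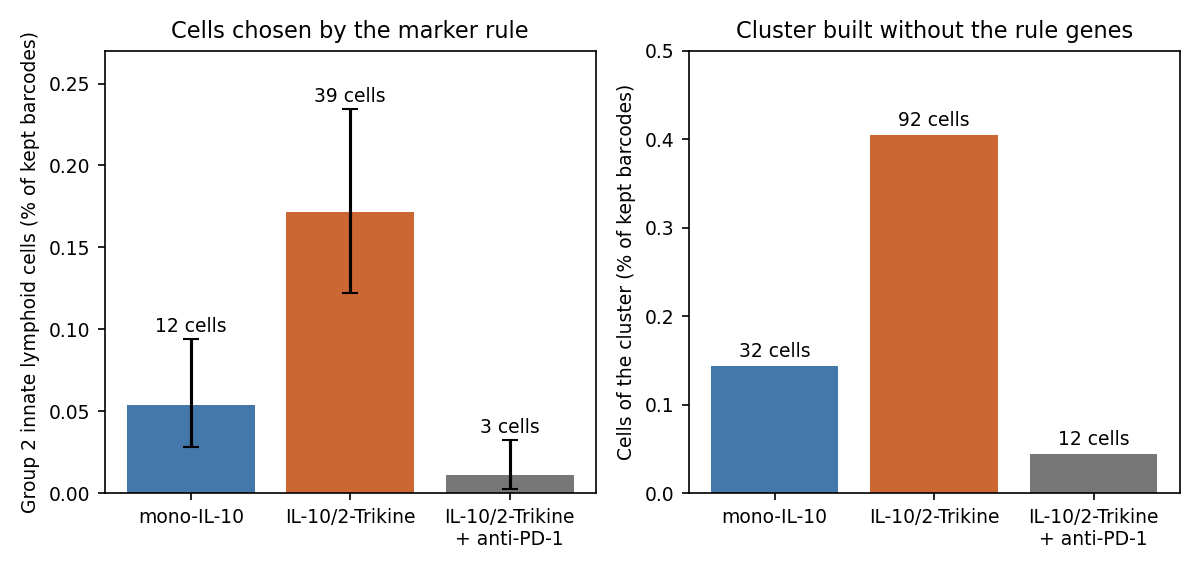
Share of kept barcodes (y axis, percent) in each of the 3 libraries (x axis) for cells chosen by the marker rule (left, bars with exact 95% binomial intervals) and for the cluster built without the genes of the rule (right, no intervals drawn). The IL-10/2-Trikine bar is the highest in both panels, with 39 members and 92 cluster cells, and the combination bar the lowest, with 3 and 12.

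Genes outside the rule matched the label in the mono-IL-10 and IL-10/2-Trikine libraries. Areg, which encodes the epidermal growth factor receptor ligand amphiregulin, stood at 8128 CPM after mono-IL-10 and 9662 CPM after IL-10/2-Trikine in members, against 251 and 300 CPM in the CD4 T cells of the same libraries. Arg1, the arginase of lung ILC2, stood at 3212 and 1496 CPM, against 4.39 and 5.42 CPM in CD4 T cells. Both genes were seen in most members of these libraries, Areg in 11 of 12 and 32 of 39, and Arg1 in 11 of 12 and 33 of 39. Of these 33 IL-10/2-Trikine members with Arg1, 32 were among the 34 in the cluster. The match is therefore weaker for the members outside it.

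Among the transcription factors, Rora, which drives ILC2 development, was seen in 12 of 12 and 36 of 39 members and stood at 2673 and 1744 CPM. Rora was not among the 20 genes with the largest excess over CD4 T cells. The paper also names it as a marker of a regulatory T cell cluster in this tumor model. Of the surface receptors, Il7r, the interleukin-7 receptor chain, stood at 1579 and 2233 CPM, and Klrg1, an inhibitory receptor of mature ILC2, at 395 and 263 CPM. Thinned to 1000 UMIs per cell, Il7r was seen in 91.7% and 89.7% of members, against 25.5% and 38.3% of CD4 T cells and at most 2.00% of macrophages and neutrophils, which mark the level of free RNA. Arg1 was seen in 66.7% and 61.5% of thinned members and in 0.621% and 2.05% of neutrophils, so neither gene lay near that level.

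The genes with the largest excess over CD4 T cells in each of the 3 libraries included, next to Arg1 and Il13, several that are no cytokines. Hs3st1, a heparan sulfate sulfotransferase, stood at 413 and 113 CPM after mono-IL-10 and IL-10/2-Trikine but was seen in only 4 of 12 and 4 of 39 members, and Dach2, a nuclear cofactor, at 574 and 534 CPM. Rab27b, a small GTPase of secretory granules, stood at 269 and 263 CPM. Ltb4r1, the leukotriene B4 receptor, stood at 395 and 391 CPM, and Ramp1, a subunit of the receptor for the neuropeptide CGRP, at 682 and 519 CPM. In CD4 T cells of these libraries Hs3st1, Dach2 and Rab27b were below 3 CPM, Ltb4r1 at 3.57 and 17.1 CPM and Ramp1 at 44.6 and 17.4 CPM.

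Other textbook ILC2 genes were not seen. Ptgdr2, the prostaglandin D2 receptor CRTH2, had 0 UMIs in all 54 members and was at most 0.241 CPM in the CD4 T, NK, macrophage and neutrophil gates, and Il9 and Tph1 had 0 UMIs in members as well. Il17rb, the interleukin-25 receptor chain, was seen in 1, 2 and 1 members, and Il10 in 0, 1 and 0. Of the lists of other cell types, 12 of 14 mast cell and basophil genes, 7 of 8 eosinophil genes and 6 of 15 myeloid genes had no UMI in any member, although the rule itself barred Cpa3 and Fcer1a and limited 5 of the myeloid genes. B cell and KP1 tumor genes were at 0 for 3 of 6 and 6 of 9. KP1 tumor genes summed to 17.9, 143 and 691 CPM in the 3 libraries, and the value of the combination came from 8 Calca UMIs and 1 Epcam UMI in 1 of its 3 members, against 13.3 to 55.0 CPM in the gated cells of that library. Calca also stands on the list of ILC2 effector cytokines. CD4 T cells held 30.1% and regulatory T cells 15.3% of its UMIs in the combination library, so it does not mark tumor RNA alone. Of the ILC3 genes 7 of 10 had no UMI in any member, Il17a and Il23r among them. Of the ILC1 and NK genes only 5 of 14 had none, Ncr1 and Eomes among them, and 7 of 12, 28 of 39 and 1 of 3 members carried a UMI of that list. The whole ILC3 list of 10 genes summed to 341, 271 and 768 CPM in the 3 libraries, the ILC1 and NK list of 14 genes to 179, 549 and 154 CPM, and the myeloid list to 682, 361 and 1919 CPM, and the part of such RNA in the results below was not tested. Ccr3, the eotaxin receptor, was the exception on the eosinophil list, with 36 and 113 CPM after mono-IL-10 and IL-10/2-Trikine and 1 and 11 cells.

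**Figure D2:**
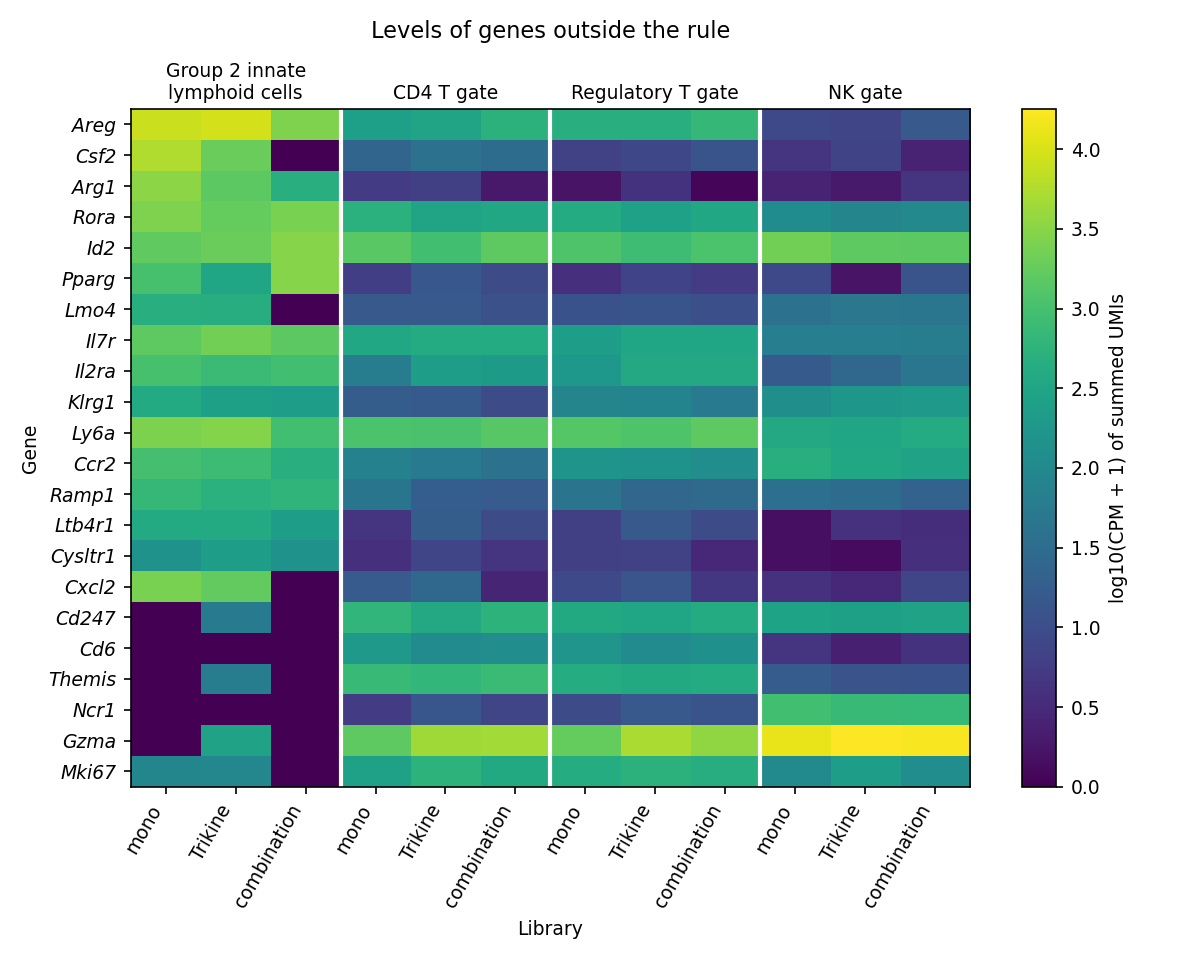
Levels of 22 genes that the rule did not use (rows) in members and in the CD4 T, regulatory T and NK gates of each library (columns), as log10 of CPM + 1 by color. The rows from Areg to Cxcl2 are bright in the mono-IL-10 and IL-10/2-Trikine members, the T cell genes Cd247, Cd6 and Themis are darker there than in the CD4 T gate, and the combination column holds 3 cells.

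T cell transcripts were low in members except for those of receptor constant genes, and the list of 20 T cell genes summed to 538, 947 and 384 CPM against 9793, 7346 and 9755 CPM in CD4 T cells. That list holds the Cd3, Trac, Trbc1, Trbc2 and Foxp3 genes that the rule limited, so part of its low level was set by the selection. Cd4, Cd6, Cd8a and Cd8b1, none of which the rule used, had 0 UMIs in members, and Themis, a signaling protein of T cells, was at 0 UMIs after mono-IL-10 and 60.2 CPM after IL-10/2-Trikine, against 764 and 664 CPM in CD4 T cells. Over the 34 IL-10/2-Trikine members in the main cluster Themis stood at 16.6 CPM. Its level thus leaned on the few members outside that cluster, for which the label is less sure. Cd3 UMIs were missing from 12 of 12, 36 of 39 and 3 of 3 members, and Trac UMIs from 12, 37 and 3. A UMI of the gamma or delta chain constant genes, which the rule did not use, was seen in 4 of 12, 16 of 39 and 1 of 3 members. Transcripts of the beta chain constant genes Trbc1 or Trbc2 were seen in 11 of 12, 31 of 39 and 1 of 3 members, and Trbc2 stood at 269 and 376 CPM after mono-IL-10 and IL-10/2-Trikine, against 1445 and 1417 CPM in CD4 T cells.

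These beta chain transcripts met the limit that the rule sets. The T cell receptor criterion alone kept out 7, 20 and 4 barcodes, and 7, 20 and 3 of them lay in the cluster that held most members. Without that criterion there were 19, 59 and 7 cells, and the share ratios were 3.04 and 0.0999. When any Cd3 or T cell receptor UMI was barred instead, only 1, 8 and 2 cells were left. Of the cells in the cluster that were no members, 9 of 20, 32 of 58 and 3 of 11 had no Cd3 UMI, and 14, 50 and 7 had no Trac UMI, so the cluster also held cells with Cd3 transcripts and its values are not those of ILC2 alone.

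Type 2 cytokines were unevenly spread over single cells. Il5, the eosinophil growth factor, stood at 2799 CPM after mono-IL-10 and 1820 CPM after IL-10/2-Trikine, and was seen in 8 of 12 and 17 of 39 members. Il13, which acts on epithelium and smooth muscle, stood at 4342 and 1451 CPM and was seen in 6 and 19 members. Csf2, the gene of GM-CSF, which the rule did not use, stood at 5473 and 1872 CPM and was seen in 7 and 9 members.

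A few cells carried most of these transcripts. The top cell held 45.5% of the Il5 UMIs, 40.9% of the Il13 UMIs and 28.5% of the Csf2 UMIs of mono-IL-10 members, and 17.4%, 28.5% and 45.4% in IL-10/2-Trikine members. All 3 cytokines were seen together in 6 of 12 and 4 of 39 members, and 3 of 12 and 12 of 39 carried none of them. In mono-IL-10 the 6 cells with Il13 all carried Il5 and Csf2 too, whereas after IL-10/2-Trikine 9 of the 19 cells with Il13 lacked Il5. These counts were not thinned, and the members differed in depth, with a median of 4421.5 and 2890 UMIs per cell. The members with none of these cytokines met the rule through Il1rl1, which was seen in every member, with 1 to 24 UMIs per cell.

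**Figure D3:**
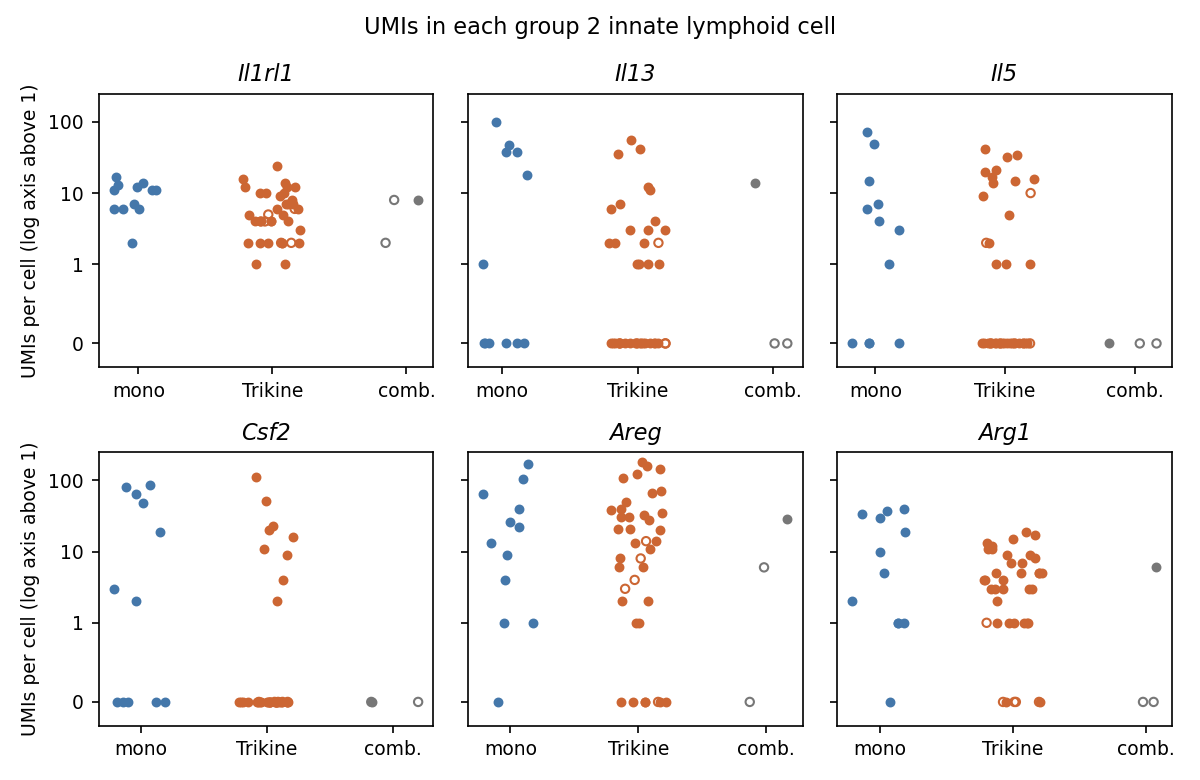
UMIs of Il1rl1, Il13, Il5, Csf2, Areg and Arg1 in each member (y axis, 0 and then a log axis above 1) by library (x axis), with horizontal scatter for legibility. Filled points lie in the cluster that holds most members and open points outside it, and Il13, Il5 and Csf2 run from 0 to at most 113 UMIs per cell within a library.

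The place of the cytokine transcripts within each library was tallied next, bearing in mind that the rule picked members partly by Il5 and Il13. Of all Il5 UMIs in kept barcodes, 48.3% lay in the 12 mono-IL-10 members, 26.4% in the 39 IL-10/2-Trikine members and 0% in the combination members. For Il13 the shares were 49.7%, 7.64% and 1.38%. CD4 T cells held 2.26%, 24.8% and 37.6% of the Il13 UMIs of the 3 libraries, and 1.55%, 10.6% and 23.0% of the Il5 UMIs. Regulatory T cells held 7.19%, 4.67% and 3.46% of the Il13 UMIs. The kept barcodes held 487, 2525 and 1013 Il13 UMIs in all, and part of them lay in cells that neither the rule nor a gate covers. The cluster built without the genes of the rule held 62.5%, 45.0% and 29.6% of the Il5 UMIs and 58.1%, 27.3% and 13.4% of the Il13 UMIs, so in the combination its 12 cells held more Il5 than the CD4 T cells did. Cells of the cluster with Cd3 and Cd4 UMIs can also fall in the CD4 T gate, and this overlap was not counted. Areg differed, with 3.66%, 3.72% and 0.0884% of its UMIs in members and 19.8%, 19.9% and 40.7% in CD4 T cells. Regulatory T cells held 22.3%, 24.3% and 26.2% of the Areg UMIs. In the mono-IL-10 and IL-10/2-Trikine libraries this was more than CD4 T cells held, from 427 and 1304 cells against 1655 and 2330. Il33, Il25 and Tslp, the alarmins that act on ILC2, had 0 UMIs in members, and Il33 had 20, 34 and 158 UMIs in all kept barcodes of the 3 libraries, which hold sorted CD45+ cells.

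The receptors of the injected proteins were measured in members. Il10ra, the ligand-binding chain for interleukin-10, stood at 305 CPM after mono-IL-10 (exact Poisson interval 178 to 488), 113 CPM after IL-10/2-Trikine (63.1 to 186) and 76.8 CPM in the combination, which is 17, 15 and 1 UMIs. CD4 T cells of the same libraries stood at 52.9, 20.3 and 24.8 CPM, and macrophages at 200.5, 173 and 175 CPM. The ratio of IL-10/2-Trikine to mono-IL-10 was 0.370 in members (0.172 to 0.787) and Il10ra was lower in CD4 T cells as well.

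Il2rb, the chain that the Trikine recruits, stood at 197 CPM (98.5 to 353), 241 CPM (165 to 340) and 461 CPM (169 to 1002) and was seen in 7 of 12, 17 of 39 and 1 of 3 members. Il10ra and Il2rb were both seen in 6, 5 and 1 members. Il2ra, the high-affinity interleukin-2 receptor chain, was higher than in CD4 T cells in each library, at 1023, 782 and 921 CPM against 62.8, 244.5 and 207 CPM. Pdcd1, the target of the antibody, stood at 197, 150 and 76.8 CPM in members, from 11, 20 and 1 UMIs, and at 197, 217 and 339 CPM in CD4 T cells.

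Gene levels in IL-10/2-Trikine members were compared with those in mono-IL-10 members over the 1091 genes with at least 30 UMIs in the pair. Of these, 123 differed at least 2-fold, or 11.3%, with 70 higher (6.42%) and 53 lower (4.86%), against a median log2 ratio of 0.03 over the genes. The interval of the ratio lay above 1 for 90 genes (8.25%) and below 1 for 99 (9.07%). Scaling by TMM or by median of ratios moved all log2 ratios up by 0.12 or 0.19, which gave 90 higher and 37 lower genes by TMM and 107 and 32 by median of ratios. The following genes were those with the interval farthest from 1 in each direction.

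Cd69, an early activation and tissue retention receptor, stood at 610 CPM after mono-IL-10 and 1744 CPM after IL-10/2-Trikine, from 11 of 12 and 32 of 39 cells, a ratio of 2.86 (1.99 to 4.23). In CD4 T cells the ratio was 0.528 and in NK cells 0.560. The Cd69 difference depended on which cells were chosen: over the whole cluster of 32 and 92 cells the ratio was 0.982. Ctla2a, a protease inhibitor gene that ranks among the leading genes of the cluster, stood at 1579 and 3293 CPM, a ratio of 2.09 (1.66 to 2.65) that was 1.67 over the cluster.

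Socs1, the feedback inhibitor of JAK-STAT signaling, stood at 35.9 and 218 CPM, from 2 of 12 and 18 of 39 cells, and its interval was wide (1.54 to 52.6). Cxcr4, the CXCL12 receptor, stood at 179 and 617 CPM, a ratio of 3.44, with 21 of 39 positive cells after IL-10/2-Trikine against 3 of 12. Satb1, a chromatin organizer of lymphocytes, stood at 89.7 and 353 CPM, a ratio of 3.94. Btf3 and Sh3bgrl had ratios of 2.61 and 4.33. Over the cluster Socs1 and Sh3bgrl came to 1.26 and 1.22, while Cxcr4 and Satb1 came to 2.47 and 2.15.

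Plac8 and Ifitm2 rested on fewer cells. Plac8 was seen in 2 of 12 and 8 of 39 members with a ratio of 3.82, and Ifitm2, an interferon-induced membrane protein gene, in 1 of 12 and 15 of 39 with a ratio of 5.59 (1.78 to 28.2, from 3 UMIs in the mono-IL-10 members). Ifitm2 had a ratio of 5.35 in CD4 T cells. Gzma, the gene of granzyme A, had 0 UMIs in mono-IL-10 members and 286 CPM after IL-10/2-Trikine, at least 5.31-fold higher against a floor of 3 counts in the mono-IL-10 members, while the exact interval of the ratio starts at 4.11. Of its 38 UMIs after IL-10/2-Trikine, 19 lay in 1 of the 13 positive members, so the level leaned on that cell. Macrophages of the same libraries, which should lack the gene, stood at 51.8 and 278 CPM. The members' summed level after IL-10/2-Trikine was thus near that of free RNA, although it was unevenly spread over members. Thinned to 1000 UMIs, 20.5% of these members carried a Gzma UMI, against 9.62% of macrophages and 12.3% of neutrophils.

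Jun, an AP-1 transcription factor gene, was the gene farthest below 1. It stood at 1023 CPM after mono-IL-10 and 90.2 CPM after IL-10/2-Trikine, from 8 of 12 and 6 of 39 cells, a ratio of 0.0882 (0.0431 to 0.166). Zfp36, whose product destabilizes cytokine messenger RNA, was seen in 12 of 12 and 24 of 39 cells with a ratio of 0.370. With the 7 of 12 and 14 of 39 members with an Mki67 or Top2a UMI left out, ratios were nearer to 1. They were 0.458 for Jun and 0.707 for Zfp36. Over the cluster Jun came to 0.215, also nearer to 1, but Zfp36 to 0.199, which is farther from it. Both were also lower in CD4 T cells, with ratios of 0.196 and 0.260, and in NK cells, with 0.249 and 0.221.

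Il13 and Csf2 followed among the lower genes, with ratios of 0.334 (0.275 to 0.405) and 0.342 (0.288 to 0.406), and Il5 came to 0.650 (0.529 to 0.800). The Il5 difference rested on the top cell, since without the cell with the most Il5 UMIs in each library the ratio was 0.986. On the same basis Il13 came to 0.404 and Csf2 to 0.261. Il13 and Il5 helped to pick the members, so their ratios are a description only. Over the cluster these ratios were 0.850 for Il13, 0.378 for Csf2 and 0.713 for Il5. In CD4 T cells Il13 went the other way, from 1.12 to 27.4 CPM. Areg came to 1.19 (1.07 to 1.33), but this value was not stable. It was 0.903 when each cell was given the same weight, 1.57 over the cluster, 1.64 without the top cells, 2.34 among cells with no Cd3 or T cell receptor UMI and 5.40 among members without Mki67 or Top2a UMIs.

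Arg1 was lower after IL-10/2-Trikine, with a ratio of 0.466 (0.379 to 0.573) and 0.544 over the cluster. Pparg, a nuclear receptor that supports type 2 cytokine output, stood at 1041 and 323 CPM, a ratio of 0.311 (0.204 to 0.469). It reversed to 3.57 among members without Mki67 or Top2a UMIs. Inpp4b, a phosphoinositide phosphatase gene, was seen in 12 of 12 and 22 of 39 members with a ratio of 0.346, and Cd81, a tetraspanin gene, in 10 and 9 with 0.218. Tasp1 came to 0.200. Over the cluster Cd81 came to 0.621, Tasp1 to 0.430, Pparg to 0.479 and Inpp4b to 0.396. Among the 1 mono-IL-10 and 8 IL-10/2-Trikine cells without any Cd3 or T cell receptor UMI, Csf2 and Arg1 went the other way, with ratios of 1.31 each.

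Cxcl3 and Dhx40 leaned on 1 cell. The top mono-IL-10 cell held 43 of the 45 Cxcl3 UMIs and 48 of the 54 Dhx40 UMIs of its library. Without the cell with the most UMIs of the gene in each library, Cxcl3 came to 1.05 and Dhx40 to 0.489.

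**Figure D4:**
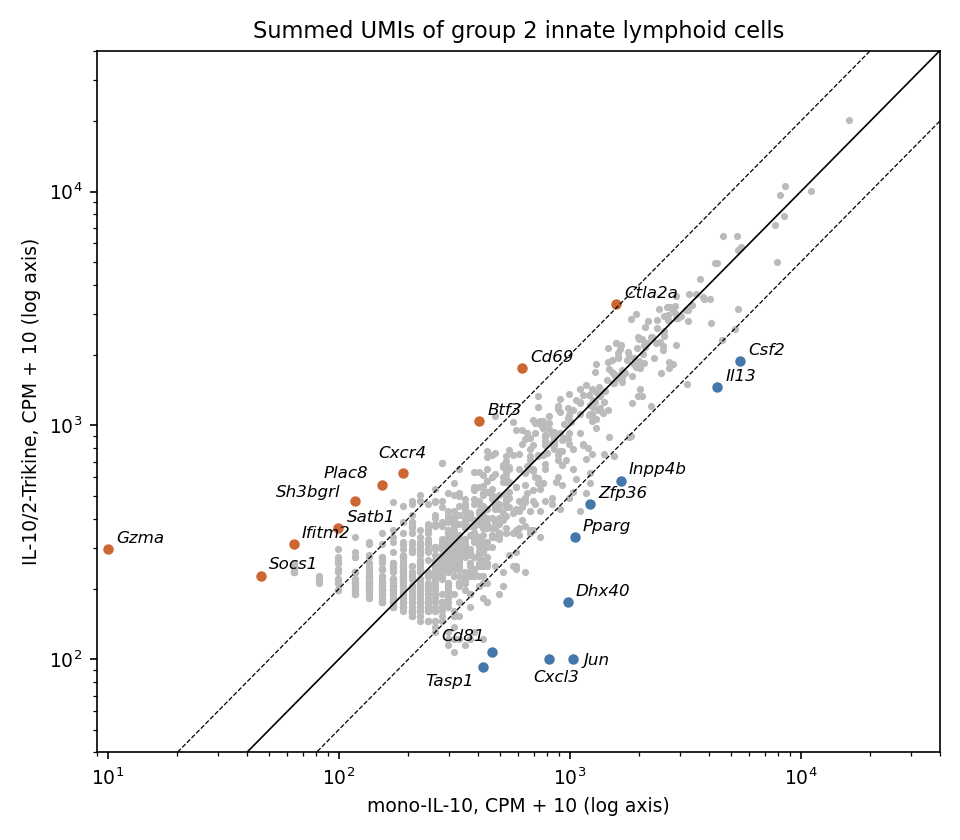
CPM + 10 of each gene in mono-IL-10 members (x axis, log) and IL-10/2-Trikine members (y axis, log) for the 1091 genes with at least 30 UMIs in the pair. The solid line marks equal levels and the dashed lines 2-fold differences, with the 10 named genes in each direction in color, and 123 genes lie at least 2-fold apart.

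Genes of the immediate-early and NF-kB response were lower together after IL-10/2-Trikine. Of 19 list genes with at least 20 UMIs in the pair, 17 were lower and 2 higher, with a median log2 ratio of -0.74 after 0.5 UMIs had been added to each count, while 813 of 1682 genes that passed the same filter were lower and their median was 0.03. Junb stood at 4540 and 2301 CPM (ratio 0.507), Fosb at 1543 and 729 CPM (0.473), and Nr4a1, a nuclear receptor induced by receptor signaling, at 1830 and 895 CPM (0.489). Nfkb1 came to 0.583 and its inhibitor Nfkbia, at 7859 and 4978 CPM, to 0.633.

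The same list was lower in other lymphocytes of the IL-10/2-Trikine library. In CD4 T cells 18 of the 19 genes were lower with a median of -0.56, in NK cells 19 of 19 with -0.57, and in regulatory T cells 14 of 19 with -0.13. Over the same 1682 genes 999 were lower in CD4 T cells (-0.14), 959 in NK cells (-0.07) and 949 in regulatory T cells (-0.05). The list was not alone in this, since 13 of 15 ILC2 transcription factors were lower in CD4 T cells (-0.62) and 14 of 15 in NK cells (-0.48), whereas 5 of 5 cell cycle genes were higher in both (1.10 and 1.13). Members still held these genes at a higher level than CD4 T cells in both libraries, at 36280 and 22151 CPM summed over the list against 8724 and 6222 CPM. Treatment and library cannot be told apart for these genes either.

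**Figure D5:**
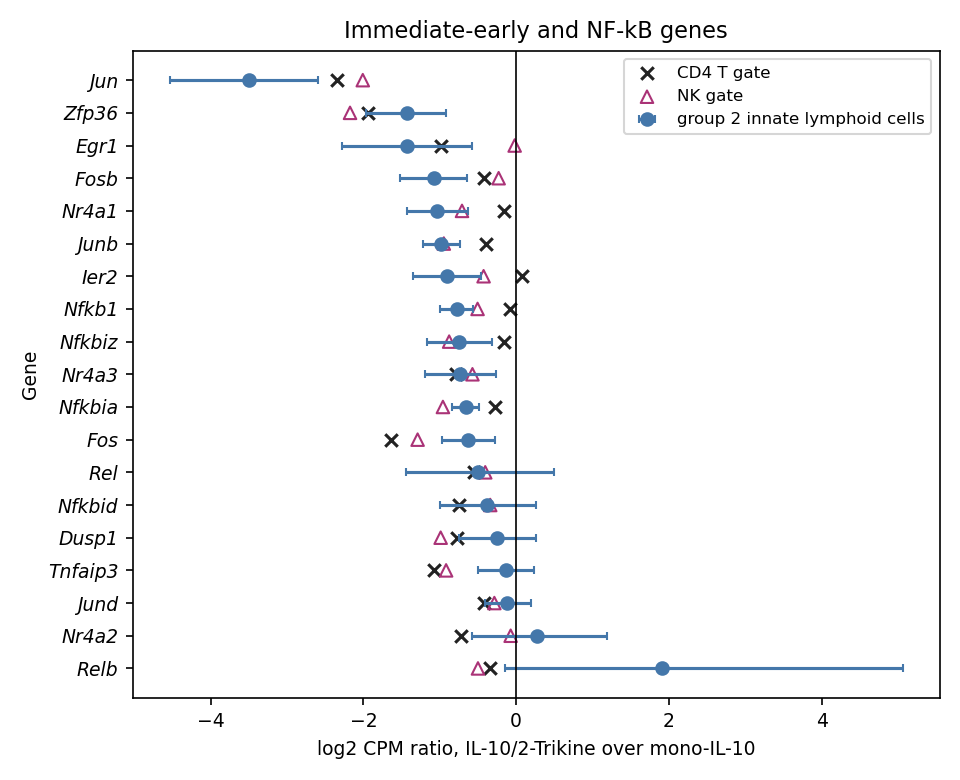
Log2 CPM ratio of IL-10/2-Trikine over mono-IL-10 (x axis) for 19 immediate-early and NF-kB genes (y axis) in members (points with exact 95% counting intervals), in the CD4 T gate (crosses) and in the NK gate (triangles). Jun lies farthest to the left in members, and 17 member points, 18 crosses and 19 triangles lie below 0.

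The remaining lists were smaller, most were split between the libraries, and the sign of several medians turned with the processing. Of 15 transcription factor genes 7 were higher and 8 lower (median log2 ratio -0.12), of 14 surface protein genes 5 and 9 (-0.16), of 6 alarmin and lipid mediator receptors 2 and 4 (-0.11), and of 7 JAK-STAT genes 3 and 4 (-0.17). Chemokines and their receptors came to 3 higher and 6 lower (-0.26), treatment receptors to 3 and 4 (-0.36), and the 5 effector cytokines to 2 and 3 (-0.62). The last of these medians is the Il5 value itself, and the list holds Il5 and Il13, by which members were picked. Of 5 cell cycle genes 4 were higher (0.56). The cell cycle list leaned on single cells, with 47 UMIs in 1 mono-IL-10 member and 142 in 1 IL-10/2-Trikine member. Lists with under 5 measured genes were the checkpoint genes, with 0 of 4 higher, led by Ctla4 at 1166 and 504 CPM, the ILC2 enzymes, with 0 of 3, the neuropeptide receptors, with 2 of 3, and the type I interferon response, with 4 of 4. Among the lists of other cell types, 3 of 3 measured T cell genes were higher (0.45), 2 of 2 ILC1 and NK genes (3.36), 0 of 2 myeloid genes (-0.96) and 0 of 1 ILC3 genes, and their part in the other differences was not tested. An Mki67 or Top2a UMI was seen in 7 of 12, 14 of 39 and 1 of 3 members, and Mki67 stood at 89.7 and 90.2 CPM after mono-IL-10 and IL-10/2-Trikine, against 270 and 561 CPM in CD4 T cells.

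The 3 members of the combination library differed from each other more than they allowed a profile to be drawn. The cell in the main cluster held 8723 of the 13028 UMIs, with 14 UMIs of Il13, 29 of Areg, 6 of Arg1 and 19 of Il7r. The cell with 2938 UMIs carried 1 UMI of Gata3 and 2 of Il1rl1 and none of Areg, Arg1 or Il7r. The third, with 1367 UMIs, carried 8 of Il1rl1 and 6 of Areg.

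Against IL-10/2-Trikine members, 320 of 839 genes differed at least 2-fold, or 38.1%, with 101 higher (12%) and 219 lower (26.1%), and the interval of the ratio lay above 1 for 10.7% of genes and below 1 for 10.1%. Scaling by TMM or by median of ratios moved the log2 ratios by -0.81 or -0.77, which left 26 and 30 higher genes against 459 and 441 lower. The genes ranked highest came mostly from the largest cell, which held 37 of 39 Pparg UMIs, 33 of 37 Ern1 UMIs and 31 of 36 Lrmda UMIs. Il5 and Csf2 had 0 UMIs in the combination members. By UMI counts this was at least 7.90-fold and 8.13-fold lower against a floor of 3 counts. The exact intervals of the ratios reach up to 0.157 and 0.152. These bounds ignore the spread over cells, since only 17 and 9 of the 39 IL-10/2-Trikine members carried Il5 and Csf2. With that spread, 3 cells are too few to show a lower level. Areg came to 2687 CPM, a ratio of 0.278 to IL-10/2-Trikine, from 35 UMIs of which 29 lay in 1 cell. By lists, 0 of 5 effector cytokines were higher (median log2 ratio -2.14), 0 of 7 JAK-STAT genes (-0.41), 7 of 15 transcription factors (-0.25), 5 of 12 surface proteins (-0.53), and 13 of 17 immediate-early and NF-kB genes (0.38), against 595 of all 1308 genes that passed the same filter (-0.16). Il5 and Il13 on the effector list were used to pick the members. The immediate-early median has no stable direction, since it was -0.43 by TMM, -0.39 by median of ratios, -0.02 over the cluster and -3.15 without the top cells.

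The cluster gave another picture for these cytokines. Its 12 combination cells stood at 1185 CPM of Il5, seen in 7 cells, and 1874 CPM of Il13, seen in 8, against 997 and 1666 CPM in the 92 IL-10/2-Trikine cells. Csf2 stood at 248 CPM in 3 of 12 cells, against 1192 CPM in 25 of 92. Areg stood at 5993 CPM in 11 of 12 cells, against 7268 CPM in 80 of 92. Of the 11 combination cells in it that were no members, 9 had 4 or more T cell receptor UMIs and 6 had 2 or more Cd3 UMIs, so the absence of Il5 from the members holds for the rule and not for the cluster.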

How the data were processed

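The authors deposited raw UMI counts per gene and barcode for 3 libraries, 1 per group, with all barcodes included, and per the file headers they came from Cell Ranger 8.0.0, while the submitters' processing notes name mm10 as the build. The paper's methods name a later Cell Ranger version and another mouse genome build for these libraries, and this difference was not resolved. The deposited gene and barcode tables give names only. Members and gene lists were chosen with earlier results of these data known.

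Barcodes were kept as stated in the results, with no removal of doublets: Scrublet called 2782 barcodes (12.5%) in the mono-IL-10 library and 0 in the others, and so had not worked. UMIs were summed per library and divided by the summed totals (CPM). Shares carry Clopper-Pearson intervals, share ratios log-scale normal intervals, CPM exact Poisson intervals and CPM ratios exact conditional binomial intervals, all at 95%. The floor for a count of 0 was 3 counts. With 1 library per group no test was possible. Clustering used 2000 variable genes without those of the rule, 30 components, 20 neighbors and Leiden resolution 1 (scanpy 1.11.5). Thinning drew 1000 UMIs per cell and left out shallower cells. TMM came from edgeR 4.0.16, used for scaling factors alone. The scripts were tested on simulated counts without differences between cells. Of the genes given no change, 38 of 829 (4.58%) passed 2-fold for IL-10/2-Trikine over mono-IL-10. For the combination over IL-10/2-Trikine 134 of 657 (20.4%) did, by counting error and rescaling alone.

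Named genes were the list genes with at least 20 UMIs over members, the 10 highest and 10 lowest in each comparison by the bound of the ratio nearest to 1, among genes with at least 30 UMIs in the pair and 50 CPM in the higher library, and the 20 with the largest excess over CD4 T cells in every library. Of these, the text gives those that carry a comparison. Alternatives covered the rule, the denominator, depth, scaling, cell weights, single cells, cells with Mki67 or Top2a UMIs and filters on low counts.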

Additional observations from a re-analysis of the deposited data

How the results depend on the processing

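No paired analysis was possible because each group had 1 library. The share of members was higher after IL-10/2-Trikine than after mono-IL-10, and lower in the combination than after IL-10/2-Trikine, under every alternative rule and every denominator of kept barcodes that was run. Per 1000 regulatory T cells the first 2 libraries were nearly level, at 28.1 for mono-IL-10 and 29.9 for IL-10/2-Trikine. With no Cd3 or T cell receptor UMI allowed, which left 1, 8 and 2 cells, the ratios were 7.83 (0.980 to 62.6, an interval that includes 1) and 0.211, and without the Gata3 criterion the second was 0.253. The count of genes at least 2-fold apart in the first of these comparisons was 45 of 178 (25.3%) with no Cd3 or T cell receptor UMI, 264 of 3080 (8.57%) over the cluster cells, 714 of 3134 (22.8%) with at least 10 UMIs in the pair and 22 of 297 (7.41%) with at least 100, against 11.3% as reported. Between the combination and IL-10/2-Trikine it was 485 of 839 (57.8%) by TMM, 140 of 154 (90.9%) with no Cd3 or T cell receptor UMI, 538 of 840 (64%) with equal weight per cell, 537 of 641 (83.8%) without the cell with the most UMIs of the gene, and 1308 of 2600 (50.3%) and 50 of 237 (21.1%) at these filters, against 38.1%. It was 333 of 435 (76.6%) without cells with Mki67 or Top2a UMIs, and lowest over the cluster cells, at 382 of 2722 (14%). The median of the immediate-early and NF-kB list was -1.30 with no Cd3 or T cell receptor UMI. Single genes turned direction as follows: Csf2 to 1.31, Arg1 to 1.31 and Ctla4 to 1.26 with no Cd3 or T cell receptor UMI, where 1 mono-IL-10 cell was left, Areg to 0.903 with equal weight per cell, Cxcl3 to 1.05 without its top cell, Pparg to 3.57 without cells with Mki67 or Top2a UMIs, and Cd69 to 0.982 over the cluster cells. The surface protein median of the combination over IL-10/2-Trikine turned to 0.29 over the cluster cells and 0.0093 with at least 5 UMIs. In all, 32 of 118 alternative values for 16 list medians lay on the other side of 0. Among them were chemokines of IL-10/2-Trikine over mono-IL-10 (1.15 without the top cells, 0.82 without cells with Mki67 or Top2a UMIs). Surface proteins of the same pair turned to 1.05 with no Cd3 or T cell receptor UMI. For the combination, treatment receptors (0.19) and alarmin receptors (0.12) turned over the cluster cells. The immediate-early list of the combination turned to -0.43 by TMM, -1.97 with no Cd3 or T cell receptor UMI and -0.08 with equal weight per cell. It was -2.03 without cells with Mki67 or Top2a UMIs. Except where fewer cells or genes were left, the cause was not tested. Over 30 single-gene ratios and all alternatives, 47 of 226 values lay more than 1.5 times from the reported one. The alternatives without a T cell receptor limit, over the cluster cells for genes, and without the 10% of barcodes with the highest doublet scores were chosen after seeing the data, and the last replaced the removal of called doublets, which was not run. Counts of 3 cells in the combination limit every statement on it.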

Other observations

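Calca, the gene of the neuropeptide CGRP, had 0, 7 and 8 UMIs in the members of the mono-IL-10, IL-10/2-Trikine and combination libraries, and the 8 of the combination came from 1 cell. Ccr3, the eotaxin receptor, reached 113 CPM in IL-10/2-Trikine members, against 1.88 CPM in CD4 T cells and 2.06 CPM in macrophages of that library, and the members held 3.58% of its UMIs there. The 1304 regulatory T cells of that library held 24.1% of its Ccr3 UMIs. Siglecf, Prg2 and Epx, which define eosinophils together with Ccr3, had 0 UMIs in members.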
